A study of Mus musculus with 7 samples.

Results

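FoxO transcription factors and the enzymes that clear superoxide and peroxide were described here as a group of 10 genes, chosen by symbol: Foxo1, Foxo3, Foxo4, Txnip, Sod1, Sod2, Cat, Prdx1, Gpx1 and Gclc. All 10 were found among the 48440 genes of the deposited table, and all 10 were tested. RNA came from LSK cells, the Lin-Sca1+cKit+ fraction of bone marrow (BM), which includes the hematopoietic stem cells (HSCs). In the 4 wild-type libraries, irradiated C57BL/6 mice (9.5 Gy) carried BM from wild-type donors. In the 3 libraries labelled PROSER1 KO (the KO-labelled libraries) such mice carried BM from donors with a constitutive, endonuclease-mediated knockout of PROSER1, a partner of the TET DNA demethylases. LSK cells were sorted at day 77 after transplantation in both groups, the ages of the mice are not given in the sources used here, and the methods name no donor marker for this sort, so that residual host cells cannot be told apart from donor cells.

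FoxO factors are held in the cytoplasm when growth factor signals activate PI3K and AKT, and enter the nucleus when these signals fade. There they switch on genes for cell cycle arrest, for nutrient and stress responses and for antioxidant defence. In mouse HSCs, FoxO1, FoxO3 and FoxO4 are known to preserve quiescence and to keep reactive oxygen species low. Superoxide dismutases turn superoxide into hydrogen peroxide. Catalase splits that peroxide into water and oxygen, whereas peroxiredoxins and glutathione peroxidases reduce it with electrons that come mainly from thioredoxin and glutathione.

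The library labels were first checked on the targeted gene. For Proser1, wild-type replicates 1 to 4 had normalized counts of 2019, 2153, 2103 and 2077, and KO-labelled replicates 1 to 3 had 2464, 2359 and 2338. Its mRNA was not lower in the KO-labelled libraries: all 3 lay above all 4 wild-type libraries (log2 fold change 0.19, SE 0.049), a difference that did not pass the test (adjusted p = 0.204 from limma). Which exons the knockout removes is not given in the sources used here, and every direction in the text rests on the labels. A normalized count is the number of read pairs of a gene divided by 1 size factor per library, and the libraries held 33143619 to 45140743 read pairs on genes. Each of the 10 genes had between 1083 and 39369 read pairs in every library. Kit, Ly6a (Sca1) and Cd34 were present throughout, and markers of other cells were also detected. The neutrophil granule gene Ngp ranged from 256 to 1400 and S100a9 from 214 to 1138, both highest in wild-type replicate 1, although Ly6g stayed at 16.3 or less. The 12 granulocyte and monocyte markers together summed highest in wild-type replicate 3 (30284, against 28600 in wild-type replicate 1). Mpo, Prtn3 and Ctsg of this list were also highest in wild-type replicate 3. The T cell gene Cd3g was at 697 in KO-labelled replicate 1 and at 20.9 to 52.9 in the other libraries, and the B-lineage gene Cd79a reached 1006 to 2586. The 12 T and innate lymphoid markers together summed highest in wild-type replicate 1 (8825, against 8480 in KO-labelled replicate 1). Fewer cells of a type and less RNA per cell cannot be told apart in such bulk samples. The 11 plasma cell markers summed to 1015888 to 2368754 in wild-type and to 903499 to 1378134 in the KO-labelled libraries. Most of these sums came from Ighm alone, with 830464 in wild-type replicate 3 and 687394 in KO-labelled replicate 2, the lowest library of each group. The part of other cell types in the results was not tested.

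Reference promoters (RefSeq, GRCm38.p6; 250 bases before and 50 after the start site) were available for 8 of the 10 genes, all but Foxo4 and Gclc. They were searched on both strands for the FoxO core GTAAACA, which other forkhead factors also bind, for the antioxidant response element TGACNNNGC bound by NRF2 with small MAF proteins, and for the E-box CACGTG. The 3 matches found upstream follow 5′ to 3′ on the strand of the gene, with 30 bases on each side and the match in capitals, because they are the letters of the FoxO and NRF2 pathways found at these genes.

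Txnip: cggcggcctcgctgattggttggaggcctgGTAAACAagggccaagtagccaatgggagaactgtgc
Prdx1: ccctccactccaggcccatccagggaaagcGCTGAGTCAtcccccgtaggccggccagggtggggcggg
Sod1: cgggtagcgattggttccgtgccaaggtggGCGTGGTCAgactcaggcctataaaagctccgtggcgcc

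The Txnip window lies at chr3:96557806-96557872 and its FoxO core starts 121 bases upstream of the start site. For Prdx1 (chr4:116685436-116685504) and Sod1 (chr16:90220676-90220744) the antioxidant response element is on the opposite strand and starts 133 and 56 bases upstream, respectively. In Prdx1 it overlaps the AP-1 motif TGAGTCA. Of 32851 mouse promoters of the same length, 3.65% held the FoxO core, 12.4% the antioxidant response element and 7.15% the E-box CACGTG. None of the 8 promoters held CACGTG, and E-boxes with other letters were not searched. These matches describe letters in a window, and binding was not measured.

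None of the 10 genes passed the test between the groups. A gene was called where its adjusted p-value was under 0.05 with a change of over 1.5-fold, and by this rule limma called 0 of the 10, against 0.258% of all 16251 tested genes (42; 0.123% higher and 0.135% lower in the KO-labelled libraries). The lowest adjusted p-value was 0.605 (limma), for Txnip. On the recovered read pairs, edgeR also called 0 of the 10 (0.246% of all genes, 0.129% higher and 0.117% lower), as did DESeq2 (0.873% of all genes, 0.423% higher and 0.450% lower). Without adjustment, 0 of the 10 had a p-value under 0.05 with limma, 0 with edgeR and 1 with DESeq2 (Txnip), against 9.73%, 9.86% and 7.03% of all genes. In all 10 the groups overlapped. Over all tested genes they did not overlap in 10%, and with only 10 genes a count of 0 is not set apart from this share.

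The differences were small in size. The median absolute log2 fold change was 0.05 over the 10 genes and 0.09 over all tested genes, and the signed medians were -0.01 and 0.00. All 10 fitted 95% intervals lay within a 1.5-fold change in either direction, and 8 of the 10, all but Txnip and Foxo1, lay within 1.2-fold. The libraries of a group also resembled each other: the median SD within groups was 0.087 on the log2 scale for the 10 genes and 0.134 for all tested genes. All tested genes include those averaging as few as 10 normalized counts, far below the 10 genes. No set of genes with a matched level was compared, so these medians do not show that the 10 genes were unusually steady.

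**Figure D1:**
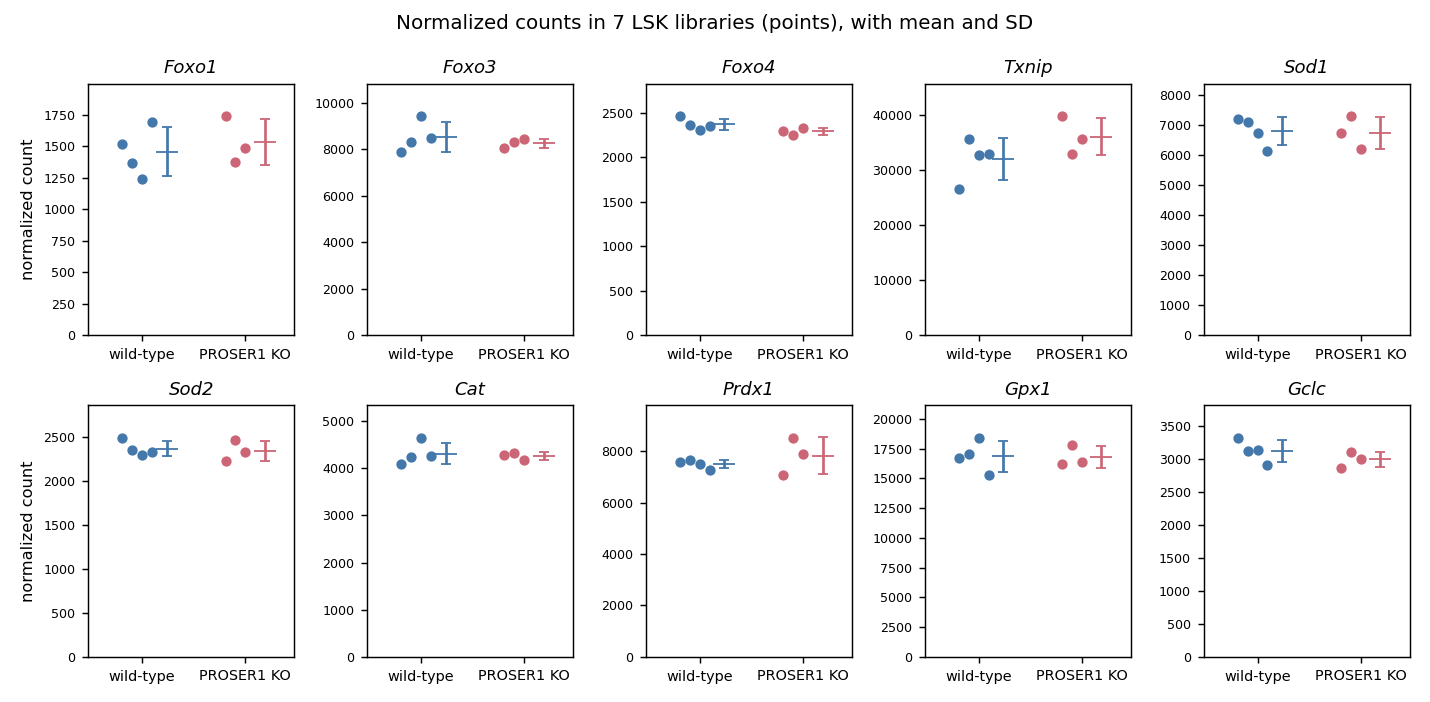
Normalized count (y axis, from 0) of each of the 10 genes in the 4 wild-type (blue) and 3 PROSER1 KO (red) libraries. Points are libraries, and bars give the mean and SD. In every panel the ranges of the groups overlap, and Txnip in wild-type replicate 1 (26522) is the lowest of its 7 values.

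Among the FoxO factors, Foxo1 (ENSMUSG00000044167; GRCm38 chromosome 3, 52268336 to 52353221, forward strand) lies 1110 kb from Proser1. Wild-type replicates 1 to 4 stood at 1519, 1368, 1245 and 1698 normalized counts, and KO-labelled replicates 1 to 3 at 1739, 1379 and 1484. KO-labelled replicate 1 was the highest library and wild-type replicate 3 the lowest. Averages were 1458 ± 196 (SD, n = 4) and 1534 ± 185 (SD, n = 3), with a log2 fold change of 0.08 (95% interval -0.18 to 0.33, adjusted p = 0.882 from limma). Without KO-labelled replicate 1, this log2 fold change was -0.02.

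Foxo3 (ENSMUSG00000048756; chromosome 10, 42181841 to 42276755, reverse strand), the factor most closely tied to HSC maintenance, had the most read pairs of the FoxO genes. It was measured at 7882, 8301, 9417 and 8499.8 in wild-type and at 8038, 8296 and 8430.5 in the KO-labelled libraries. All 3 of the latter fell inside the wild-type range, which was set by wild-type replicates 1 and 3. The log2 fold change was -0.04 (95% interval -0.18 to 0.09, adjusted p = 0.873 from limma).

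Foxo4 (ENSMUSG00000042903; X chromosome, 101254528 to 101260873, forward strand) varied least between libraries. Wild-type values were 2459, 2368, 2306 and 2346, and those of the KO-labelled libraries were 2299, 2247 and 2324. KO-labelled replicates 1 and 2 lay just below every wild-type library, and replicate 3 lay inside the wild-type range. The log2 fold change of -0.05 (95% interval -0.15 to 0.06) did not pass the test (adjusted p = 0.784 from limma). Foxo6, the remaining FoxO gene, was at 6.96 or less in every library and was not tested.

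The kinases, phosphatases and deacetylases that control FoxO proteins were examined as 23 regulators, of which limma called 0 (median log2 fold change 0.03). At an unadjusted limma p-value under 0.05, 2 were higher and 0 lower (8.70%, against 9.73% of all tested genes), namely Skp2 and the kinase Stk4. Stk4 (log2 fold change 0.10, adjusted p = 0.486 from limma) was the only regulator without overlap of the groups (4.35% of the list, against 10% of all tested genes). Skp2, a ubiquitin ligase subunit that targets FoxO1 and p27, had the highest log2 fold change at 0.28 (1107 ± 89.8 and 1340.3 ± 118 normalized counts, adjusted p = 0.322 from limma), followed by the deacetylase Sirt1 at 0.13. At the other end were Sgk1, a kinase related to AKT, at -0.15 and Mtor at -0.09.

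Of 29 FoxO target genes, limma called 0, and 3 were higher and 1 lower at an unadjusted p-value under 0.05 (13.8%, against 9.73% of all tested genes). In 10.3% of the list the groups were without overlap, compared with 10% over all genes. The 3 higher genes were Sesn3, a stress-induced regulator of mTORC1, Ccng2, an atypical cyclin of resting cells, and Insr, the insulin receptor. Sesn3 had normalized counts of 2544, 3231, 2720 and 3042 in wild-type and 3475, 3242 and 3735 in the KO-labelled libraries, so that all 3 of the latter lay above all 4 of the former. Its log2 fold change was 0.28 (SE 0.086, adjusted p = 0.327 from limma and 0.0657 from DESeq2). Ccng2 likewise had no overlap, with 2368, 2989, 3061 and 3029 in wild-type against 3449, 3266 and 3345. Its log2 fold change was 0.24 (SE 0.088, adjusted p = 0.417 from limma). Neither gene passed the threshold. Pink1, a kinase that marks damaged mitochondria, had a log2 fold change of -0.21 (adjusted p = 0.431 from limma). The highest and lowest values of the list were those of Pdk4 at 0.73 (adjusted p = 0.658), Sesn3, Trp53inp1 at -0.24 and Klf4 at -0.37 (adjusted p = 0.845 from limma); Pdk4 had under 50 normalized counts. Klf4 was at 453 in wild-type replicate 1 and between 82.8 and 182 in the other 6 libraries.

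**Figure D2:**
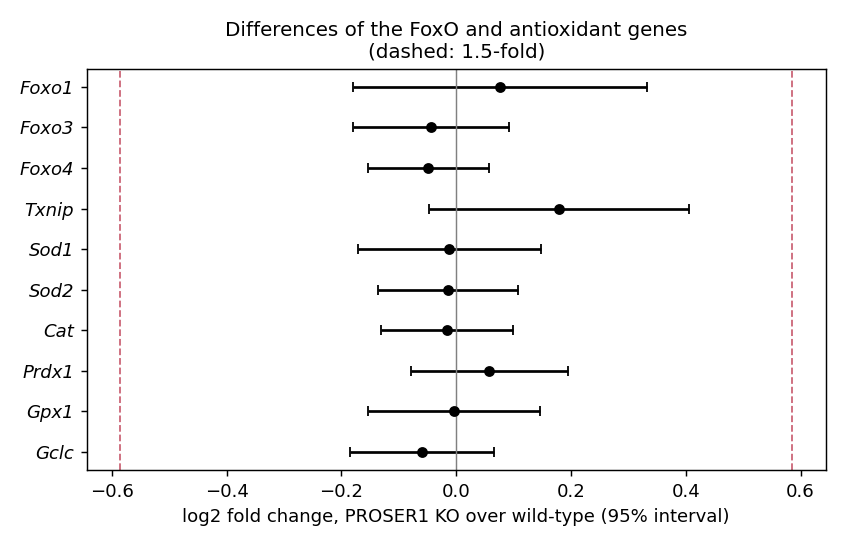
Log2 fold change of each of the 10 genes (x axis, PROSER1 KO over wild-type; points are limma estimates and bars their 95% intervals), with a 1.5-fold change marked by dashed lines. Every interval includes 0 and stays inside the dashed lines, and that of Txnip reaches farthest, to 0.40.

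Txnip (ENSMUSG00000038393; chromosome 3, 96557957 to 96561883, forward strand), which encodes the thioredoxin-interacting protein, an alpha-arrestin that binds thioredoxin and limits glucose uptake, had the largest difference of the 10. Normalized counts of 26522, 35489.6, 32695 and 32928 were measured in wild-type, and 39669.9, 32843 and 35576 in the KO-labelled libraries. KO-labelled replicates 1 and 3 lay above all wild-type libraries, and replicate 2 lay between them. The wild-type libraries averaged 31909 ± 3808 (SD, n = 4) and the KO-labelled libraries 36029.7 ± 3436 (SD, n = 3). The 1.13-fold difference (0.18 on the log2 scale) had a 95% interval from 0.968 to 1.32, with an adjusted p-value of 0.605 from limma. DESeq2 gave the same log2 fold change of 0.18 with an adjusted p-value of 0.471. Without wild-type replicate 1, the lowest library, the log2 fold change was 0.09, and without KO-labelled replicate 1, the highest library, it was 0.11. The antisense gene Gm15441 shares exon sequence with Txnip on the other strand, and its counts came to 0.212% of those of Txnip.

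Txnip is induced with its relative Arrdc4 by the glucose-sensing factor MondoA (Mlxip) and its partner Mlx. Of the 7 tested genes among MondoA, Mlx, their relative and the alpha-arrestins, limma called 0. Arrdc4 had 809.7, 1398, 1287 and 1341 normalized counts in wild-type, against 1610, 1283 and 1479 in the KO-labelled libraries (log2 fold change 0.29, 95% interval -0.10 to 0.69, adjusted p = 0.628 from limma). Txnip and Arrdc4 put the 7 libraries in the same order, from KO-labelled replicate 1 at the top to wild-type replicate 1 at the bottom, apart from an exchange of wild-type replicate 3 and KO-labelled replicate 2. Arrdc2 and Arrdc3, alpha-arrestins that act in receptor trafficking, pointed the other way. Arrdc2 was at 766, 788, 751 and 784 in wild-type and at 637, 628 and 611 in the KO-labelled libraries, without overlap, and its log2 fold change was -0.30 (SE 0.066, adjusted p = 0.142 from limma). Arrdc3 was at 2095, 1467, 1887 and 2109.9 against 1205, 1516 and 1305, with a log2 fold change of -0.49 (SE 0.130, adjusted p = 0.234 from limma). With DESeq2 these were the only listed genes with an adjusted p-value under 0.05 (0.0479 for Arrdc2 and 0.00353 for Arrdc3), and at 1.24-fold and 1.41-fold lower they stayed below the 1.5-fold minimum. Over all genes, 311 of the 18903 with a DESeq2 adjusted p-value were under 0.05 without a fold change minimum, so that 2 among all listed genes is not set apart from that share.

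The thioredoxin system itself differed little. Thioredoxin (Txn1) had 6404 ± 457 and 6512 ± 845 normalized counts, and cytosolic thioredoxin reductase (Txnrd1) 7407 ± 231 and 7401 ± 114. Of the 12 tested genes of this list, limma called 0 (0 at an unadjusted p-value under 0.05), and their median log2 fold change was 0.01. Next to Txnip, Txnrd3 was the highest at 0.07, and the glutaredoxins Glrx2 and Glrx5 were the lowest at -0.07 and -0.04. Within libraries, the log2 ratio of Txnip to Txn1 averaged 2.31 ± 0.209 (SD) over 4 wild-type libraries and 2.47 ± 0.285 (SD) over 3 KO-labelled libraries. The difference of 0.16 was within the spread (two-sided exact permutation test over 35 splits, p = 0.429; 0.754 adjusted over 6 ratios). It was 0.064 without wild-type replicate 1, 0.071 without KO-labelled replicate 1, 0.085 without KO-labelled replicate 3 and 0.324 without KO-labelled replicate 2.

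The intervals of both superoxide dismutases stayed within 1.2-fold. Sod1 (ENSMUSG00000022982; chromosome 16, 90220754 to 90226329, forward strand), the cytosolic copper and zinc enzyme, was measured at 7214, 7099.9, 6736 and 6149 in wild-type and at 6729.5, 7287 and 6214 in the KO-labelled libraries. Both ends of the range were held by different groups, with KO-labelled replicate 2 at the top and wild-type replicate 4 at the bottom. Its fold difference was 0.992 (95% interval 0.888 to 1.11, adjusted p = 0.975 from limma). The pseudogene Gm8566, with 97.8% identity to Sod1 over 465 bases, had counts of 0.522% of its own. Sod2 (ENSMUSG00000006818; chromosome 17, 13006846 to 13040063, forward strand), the mitochondrial manganese enzyme, had 2482, 2350.1, 2287 and 2323 normalized counts in wild-type, against 2228, 2457 and 2326 in the KO-labelled libraries. Its fold difference was 0.990 (95% interval 0.910 to 1.08, adjusted p = 0.958 from limma). Stretches of 200 to 210 bases with at least 90.4% identity to Sod2 occur in 11 other genes, so that a part of its reads could be uncertain. The log2 ratio of Sod1 to Sod2 was 1.52 ± 0.083 (n = 4) and 1.53 ± 0.096 (n = 3; exact permutation p = 1). Ccs, which loads copper into Sod1, and the copper carrier Atox1 had log2 fold changes of 0.00 and 0.03, and the secreted Sod3 was at 4.80 or less in every library.

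Hydrogen peroxide is removed by catalase in peroxisomes, and Cat (ENSMUSG00000027187; chromosome 2, 103453849 to 103485160, reverse strand) was among the steadiest of the 10. Wild-type libraries had 4098, 4240.5, 4638 and 4266 normalized counts and the KO-labelled libraries 4273, 4329.98 and 4175. The 3 KO-labelled values lay inside the wild-type range, and the fold difference was 0.989 (95% interval 0.913 to 1.07, adjusted p = 0.952 from limma). Among 15 peroxisome biogenesis genes limma called 0. Their log2 fold changes ran from -0.20 (Pex16; 841 ± 49.3 and 731 ± 59.5 normalized counts, adjusted p = 0.460 from limma) and -0.10 (Pex19) to 0.08 (Pex26) and 0.20 (Pex10).

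Prdx1 (ENSMUSG00000028691; chromosome 4, 116685544 to 116700822, forward strand), the abundant cytosolic peroxiredoxin, spread more widely in the KO-labelled libraries. Values were 7584, 7639, 7517 and 7259 in wild-type and 7094, 8507 and 7877 in the KO-labelled libraries, so that replicates 2 and 3 of the latter lay above and replicate 1 below every wild-type library. The coefficient of variation was 2.24% in wild-type and 9.05% in the KO-labelled libraries. The log2 fold change was 0.06 (95% interval -0.08 to 0.19, adjusted p = 0.807 from limma) and was -0.0046 without KO-labelled replicate 2. Reads of 2 pseudogenes with 98.3% (Gm21399) and 97.5% (Gm7204) identity to Prdx1 over 597 bases could be shared with it, and their counts came to 0.261% and 0.295% of its own. Of all 6 peroxiredoxins limma called 0 (0 at an unadjusted p-value under 0.05), and Prdx4, the enzyme of the endoplasmic reticulum, had the lowest log2 fold change at -0.18 (adjusted p = 0.581), followed by the mitochondrial Prdx3 at -0.09. Prdx6 at 0.01 was next to Prdx1 at the upper end. Srxn1 (sulfiredoxin), which repairs overoxidized peroxiredoxins, had 425 ± 18.9 and 420 ± 38.3 normalized counts, and the log2 ratio of Prdx1 to Srxn1 differed by 0.08 (exact permutation p = 0.543; 0.754 adjusted over 6 ratios).

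Gpx1 (ENSMUSG00000063856; chromosome 9, 108338903 to 108340343, forward strand), a selenium-containing enzyme that reduces peroxide with glutathione, had the smallest difference of all 10 genes. Normalized counts were 16752, 17019.6, 18381 and 15259 in wild-type and 16173, 17834 and 16349 in the KO-labelled libraries. The wild-type range enclosed all 3 other libraries, and the fold difference was 0.997 (95% interval 0.899 to 1.11, adjusted p = 0.990 from limma). Gpx4, which protects lipids from peroxidation, had a log2 fold change of -0.04, and the low-count Gpx7 and Gpx3 had 0.26 and 0.36 with adjusted p-values of 0.649 and 0.850 from limma. The log2 ratio of Gpx1 to Gpx4 was 1.89 ± 0.106 (n = 4) in wild-type and 1.93 ± 0.020 (n = 3) in the KO-labelled libraries (exact permutation p = 0.629). Of 6 genes for selenoprotein synthesis limma called 0. Pstk, the kinase that primes the selenocysteine transfer RNA, was without overlap at 804, 723, 756 and 809 against 596, 652 and 668 (log2 fold change -0.28, SE 0.078, adjusted p = 0.271 from limma). Sepsecs was next at -0.06, and Secisbp2 (0.01) and Trnau1ap (0.05) were the highest.

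Gclc (ENSMUSG00000032350; chromosome 9, 77754535 to 77794485, forward strand) encodes the catalytic subunit of the enzyme that limits glutathione synthesis, and Gclm its modifier subunit. Gclc was measured at 3315, 3124, 3129 and 2916 in wild-type and at 2869, 3109 and 2999 in the KO-labelled libraries. Only KO-labelled replicate 1 lay outside the wild-type range, below it. The log2 fold change was -0.06 (95% interval -0.19 to 0.07, adjusted p = 0.776 from limma). Gclm had 3592 ± 224 and 3274 ± 217 normalized counts (-0.13 on the log2 scale, adjusted p = 0.540 from limma). The log2 ratio of Gclc to Gclm was -0.20 ± 0.119 (n = 4) and -0.13 ± 0.044 (n = 3; exact permutation p = 0.400). Of the 12 glutathione genes limma called 0 (0 at an unadjusted p-value under 0.05), with a median log2 fold change of -0.09. Ggt1 (-1.59) and Chac1 (-0.42), both with roles in glutathione breakdown, were the lowest, and Slc7a11 (0.16) and Chac2 (0.07) the highest. Ggt1 had 39.4, 30.6, 36.8 and 49.8 normalized counts in wild-type, against 34.4, 1.69 and 23.0 in the KO-labelled libraries (adjusted p = 0.542 from limma).

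NRF2 (Nfe2l2), the main activator of antioxidant genes, and its inhibitor Keap1 had log2 fold changes of 0.08 (95% interval -0.05 to 0.22) and 0.04 (95% interval -0.06 to 0.14). Limma called 0 of the 26 genes of this pathway, whose median log2 fold change was -0.01. At an unadjusted p-value under 0.05 were 2 lower genes, the NRF2 relative Nfe2l1 (-0.12, adjusted p = 0.448 from limma) and the glutathione transferase Gstp1 (-0.14, adjusted p = 0.477 from limma). The lowest values were those of Gsta3 (-0.97) and Maff (-0.39), and the highest were Me1 (0.29) and Nqo1 (0.25), with Gsta3 and Me1 under 100 normalized counts. Over all 12 lists together, limma called 0 of 138 tested genes, and the groups did not overlap in 7.25% of them, against 10% of all tested genes. Without adjustment, 5 were higher and 7 lower with a p-value under 0.05 (8.70%, against 9.73% of all tested genes).

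**Figure D3:**
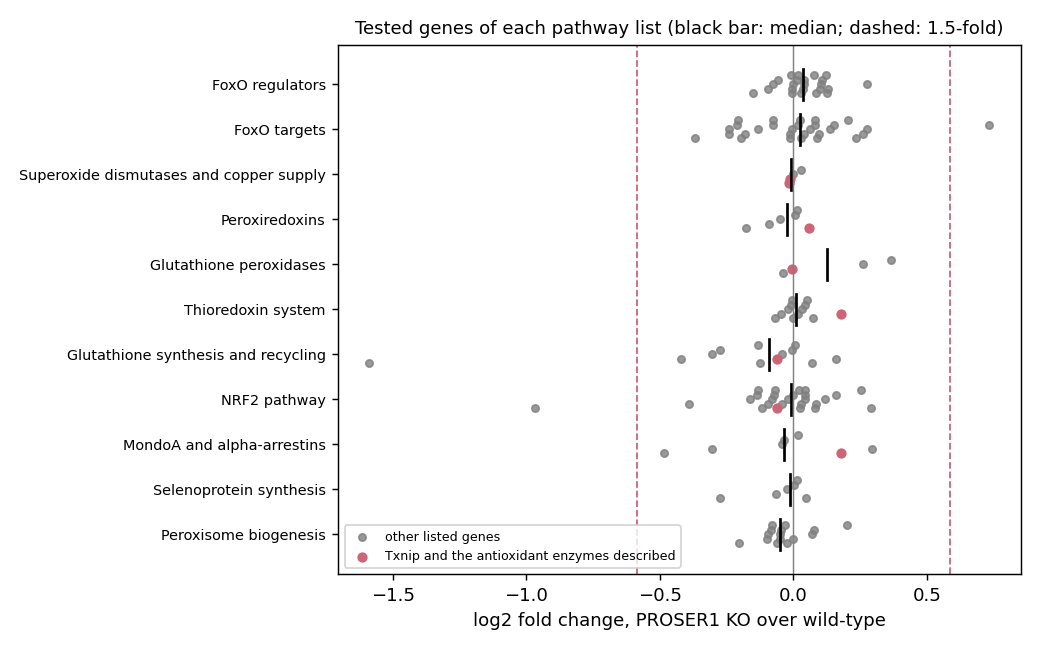
Log2 fold change (x axis, PROSER1 KO over wild-type) of every tested gene in each pathway list; points are genes, red points are Txnip and the antioxidant enzymes, black bars are list medians and dashed lines mark 1.5-fold. List medians lie between -0.09 and 0.13, and the points beyond the dashed lines (Ggt1, Gsta3 and Pdk4) are genes under 50 normalized counts.

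Levels of different genes were compared per length, as normalized counts per kb of exon. In wild-type LSK cells Gpx1 (11695 ± 888 per kb, n = 4) and Txnip (10217 ± 1219 per kb) were the highest, and their ranges overlapped. They were followed by Prdx1 (2465 ± 55.2 per kb), Sod1 (1713 ± 121 per kb), Cat (1649.7 ± 88.1 per kb), Foxo3 (1126 ± 85.6 per kb), Gclc (829 ± 43.3 per kb), Foxo4 (679.99 ± 18.6 per kb), Sod2 (236 ± 8.48 per kb) and Foxo1 (168 ± 22.6 per kb). Among neighbours in this order, Sod1 and Cat also overlapped in range, and the other 7 neighbouring pairs did not. The KO-labelled libraries had the same order of all 10 genes and the same overlapping neighbours. With the longest transcript in place of all exons the order was kept, while Gpx1 and Txnip no longer overlapped. For Sod1 (3970 bases), Cat (2613 bases) and Foxo1 (8665 bases) both lengths were the same, so that this change could not move their levels. Annotated transcripts of every type, coding or not, entered both lengths, so that a length can exceed that of the mRNA in use. Which transcripts the cells used was not measured, and levels per kb and their order depend on the annotated length.

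**Figure D4:**
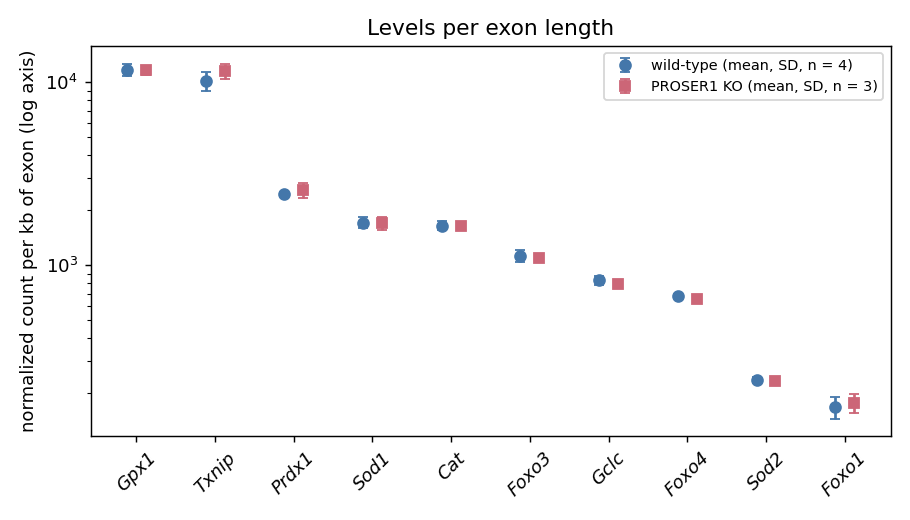
Normalized count per kb of exon (y axis, log scale) of the 10 genes, in order of their wild-type level; points and bars are the mean and SD of 4 wild-type (circles) and 3 PROSER1 KO (squares) libraries. Gpx1 (11695 per kb) and Txnip (10217 per kb) stand highest and Foxo1 (168 per kb) lowest in wild-type, and the groups follow the same order.

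Txnip and Foxo1 varied most from library to library, with SDs of 0.178 and 0.173 on the log2 scale over all 7 libraries. Of all tested genes, those with the most similar profile (the smallest root-mean-square difference of centred log2 values over 7 libraries) were AI182371 (0.048), 4933431E20Rik (0.056) and Rit1 (0.057) for Txnip, and Tcf4 (0.043), Ube2h (0.050) and Itgb2 (0.051) for Foxo1. Tcf4 encodes the E protein E2-2 and Itgb2 the beta-2 integrin of leukocytes.

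Foxo1 is required for B cell development, and its values were set beside the B-lineage markers after they had been seen. The 10 markers, among them Cd79a, Ebf1 and Rag1, summed to 8749.7, 6686, 5113 and 9314 normalized counts in wild-type replicates 1 to 4 and to 10168, 5452 and 7899 in KO-labelled replicates 1 to 3. Foxo1 and this sum put the 7 libraries in the same order apart from an exchange of wild-type replicate 2 and KO-labelled replicate 2. Rag1, a known FoxO1 target, reached 2919.9 in KO-labelled replicate 1 and 686 to 1240 in the other libraries. Its lowest value (686) was that of wild-type replicate 4, which ranked 2 of 7 for Foxo1 (1698). Without Rag1 the order of the sum changed at the top, where wild-type replicates 4 (8627) and 1 (7510.2) passed KO-labelled replicate 1 (7248). Whether a changing share of B-lineage cells had a part in the spread of Foxo1 was not tested.

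**Figure D5:**
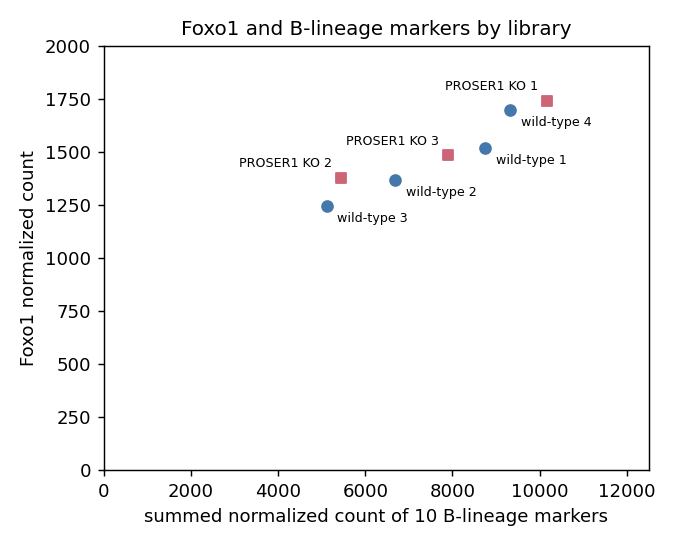
Foxo1 normalized count (y axis) against the summed normalized count of 10 B-lineage markers (x axis) in 4 wild-type (circles) and 3 PROSER1 KO (squares) libraries, each point a library. Wild-type replicate 3 is lowest on both axes (1245 and 5113) and PROSER1 KO replicate 1 highest (1739 and 10168).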

How the data were processed

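RNA of sorted LSK cells was analysed in 7 libraries, 4 of them wild-type and 3 labelled PROSER1 KO. Read pairs were trimmed by the authors (Trimmomatic), who mapped them to mm10 (STAR), counted them per GENCODE gene (featureCounts; use of strand and of multiply mapped reads is not given in the sources used here) and deposited counts divided by 1 DESeq2 size factor per library, a normalized signal that is not raw counts. Every value was a whole multiple of 1 step per library (100% within 0.01 read pairs), so that read pairs could be recovered.

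The main test was limma-trend (limma 3.58.1, R 4.3.3). It was fitted to log2 values after adding a pseudocount of 1, for the 16251 genes whose normalized counts averaged 10 or more. Fold changes are on this scale, and for low genes they differ from those of the count models in either direction (Ggt1, with 1 library at 1.69, had -1.59 here and -1.00 with DESeq2). P-values were adjusted by Benjamini-Hochberg over all tested genes. edgeR 4.0.16 (quasi-likelihood) and DESeq2 1.42.0 on recovered read pairs were alternatives, beside other pseudocounts, filters, variance estimates and normalizations, the replicate number as a block and each library left out. Ratios were compared by exact permutation over 35 splits (smallest p = 0.0286). The procedures were run on simulated data with larger changes than those of the 10 genes, so that this run does not bear on small differences. Libraries of a group differed by more than counting error (chi-square divided by its degrees of freedom, 27.8 to 88.0) and were counted as separate replicates; the labels call them biological replicates.

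Positions and exon lengths come from GENCODE M21 (GRCm38). The 10 genes and the gene lists were chosen with earlier results of these data known. Named were the 10 genes, from each list the genes past the threshold or else those with the 2 highest and 2 lowest log2 fold changes, and the 3 genes most similar to each of the 2 most variable members; other genes were named after their values were seen, as were the comparisons with Arrdc4 and with B-lineage markers. In all lists of cell type markers (HSC, B-lineage, plasma cell, T and innate lymphoid, granulocyte and monocyte, erythroid and megakaryocyte, mast cell and basophil) limma called 0 genes.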

Additional observations from a re-analysis of the deposited data

Results flagged for a closer look

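In 7 of 157 sets of wild-type values, 1 library stood apart from the other 3 by Dixon's test (the gap to the nearest library, divided by the range, above the 95% critical value), where chance flags about 1 in 20. The sets were those of the 10 genes and Proser1 (0 flagged), the 6 ratios (0), the 8 cell type marker sums (0) and the other 132 tested genes of the pathway lists (7), while groups of 3, and so the KO-labelled libraries, were not examined. Wild-type replicate 1 was low for Ccng2 (2368 normalized counts, gap over range 0.897) and high for the FoxO targets Klf2 (661 against 107 to 150 in the other wild-type libraries, 0.922) and Il7r (2971 against 1748 to 1884, 0.889). Wild-type replicate 4 was high for Gpx3 (44.1, 0.916) and low for Txn2 (2892, 0.842) and Trnau1ap (1305, 0.843). Wild-type replicate 3 was low for Chac1 (79.3, 0.867). None of these 7 genes was called by limma, with adjusted p-values from 0.417 (Ccng2) to 0.962 (Klf2).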

How the results depend on the processing

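In none of the 18 alternative fits, and with no fold change minimum, was any of the 10 genes called, and the lowest adjusted p-value among their 180 values was 0.471. Txnip, Foxo4 and Gclc kept their direction throughout, with ranges of 0.093 to 0.244, -0.062 to -0.031 and -0.092 to -0.030 when each library was left out. The other directions changed in 14 of the 180: Gpx1 had a log2 fold change of 0.0011 with quantile normalization, and leaving out each library in turn gave ranges of -0.051 to 0.039 for Gpx1, -0.070 to 0.045 for Sod1, -0.052 to 0.019 for Sod2, -0.040 to 0.020 for Cat, -0.080 to 0.0052 for Foxo3, -0.017 to 0.15 for Foxo1 and -0.0046 to 0.13 for Prdx1. Differences of the ratios with a library left out ranged from -0.037 to 0.057 for Sod1 to Sod2, -0.015 to 0.15 for Prdx1 to Srxn1, -0.00091 to 0.20 for Foxo1 to Foxo3, 0.064 to 0.324 for Txnip to Txn1, 0.039 to 0.131 for Gclc to Gclm and 0.0021 to 0.084 for Gpx1 to Gpx4. The number of called genes of all tested was 42 with limma, 17 without the mean-variance trend, 80 with robust variance estimates and 165 with DESeq2 (311 with no fold change minimum), and 23 (without PROSER1 KO replicate 2) to 42 with each library left out. Of the genes in the pathway lists, DESeq2 with no fold change minimum called 2, and every other fit called 0. The ratio of the highest to the lowest level per length was 69.5 over all exons and 93.5 with the longest transcript.

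Replicate numbers are shared by the groups. Correlations of deviations were 0.023, 0.058 and -0.106 for same-numbered libraries and -0.131 to 0.142 for the other pairs. With so few libraries these values cannot decide whether same-numbered libraries were handled together, and the labels do not say. With the replicate block, 35 genes were called in place of 42, and 0 of the 10. With 4 and 3 libraries, differences smaller than the intervals given could not be seen.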
